A study of Mus musculus with 32 samples.

Results

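The genes described here are 10 genes of the liver X receptor (LXR) pathway and of cholesterol export, chosen by name with earlier results of these data known: Abca1, Abcg1, Nr1h2, Nr1h3, Npc1, Npc2, Pltp, Lpcat3, Scarb1 and Lipa. Of these 10, 9 had values in both tables, which hold 12791 genes for 10 mM glucose and 12053 for 1 mM. Abcg1 was not analysed here. The cells were mouse embryonic fibroblasts in which the endogenous Acly gene, encoding ATP-citrate lyase, had been knocked out, and this knockout was shared by every group. KO cells carried the red fluorescent protein mCherry alone. WT, Cyto and Nuc cells carried mCherry-tagged human ACLY that was unmodified, had a nuclear export sequence, or had additional nuclear import sequences. RNA was collected 24 h after a change to medium with 10 mM or 1 mM glucose. There were 4 libraries per construct in each medium, except 3 for Cyto in 10 mM glucose, where the library numbered 3, called an anomaly by the submitters, was not analysed here. The labels do not say that libraries came from separate cultures and do not give the number of lines made with each construct, so p-values cover only the spread between these samples, which may be technical.

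LXRs are nuclear receptors that bind oxysterols and, paired with a retinoid X receptor (RXR), switch on genes that remove cholesterol from cells. Nr1h3 encodes LXRα and Nr1h2 encodes LXRβ. Abca1, the best known target, moves cholesterol and phospholipid across the plasma membrane onto apolipoprotein A-I. Cholesterol that enters by endocytosis is freed from its esters by the lysosomal lipase Lipa, passed on by the soluble protein Npc2 and exported from the lysosome by the membrane protein Npc1. Pltp transfers phospholipids between lipoproteins, Lpcat3 inserts polyunsaturated acyl chains into membrane phospholipids, and Scarb1 is a receptor for high-density lipoprotein. ACLY makes the acetyl-CoA from which cells build sterols outside mitochondria.

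Levels are given as log2 CPM, read counts scaled to one common library total on a log2 scale, where a difference of 1 is a doubling. No correction for gene length was made here, and levels were not compared between genes. Acly itself was checked first. Its mean level in 10 mM glucose was 5.87 for KO, 10.21 for WT, 9.74 for Cyto and 9.12 for Nuc cells, and in 1 mM glucose 5.35, 10.57, 10.50 and 8.97, with no overlap between KO libraries and the rest. How reads of the human transgene were assigned to the mouse gene is not stated by the labels. The 10 fibroblast markers all had values, although Thy1 and Dcn were low, and their summed level moved with the groups. In 10 mM glucose it was 26500 to 27600 CPM in KO, 44900 to 46300 in WT, 37400 to 40800 in Cyto and 49900 to 53200 in Nuc libraries. With 1 mM glucose it was 36900 to 43500 CPM in KO, 59000 to 67800 in WT, 34600 to 37900 in Cyto and 54300 to 59200 in Nuc libraries. The sum is set mainly by the highest markers, Col1a1, Col1a2 and Fn1. By the test described below, 6 of the 10 rose against KO in each line in 10 mM glucose. The only falls there were of 2 markers in Nuc cells. In 1 mM glucose 4 rose and 4 fell in WT, 1 and 7 in Cyto, and 3 and 4 in Nuc cells. Shares over all genes were 18.9% to 22.7% in each direction in 10 mM and 28.5% to 33.0% in 1 mM glucose. Of 10 macrophage markers 4 had values, and Adgre1, Ptprc, Tyrobp, Itgam, Fcer1g and Mrc1 had none. Their sum was 17.3 to 24.8 CPM in KO, WT and Cyto and 29.4 to 36.5 in Nuc libraries in 10 mM glucose, and 21.2 to 27.8 in KO and Nuc against 9.82 to 16.6 in WT and Cyto libraries in 1 mM glucose. Of 7 adipocyte markers 2 had values, summing to at most 40.8 CPM, and of 6 endothelial markers at most 3, summing to at most 10.9 CPM. Of 6 epithelial markers only Krt19 had values, between 21.9 and 50.4 CPM in 10 mM glucose. In 1 mM glucose Krt19 stood at 8.48 to 11.7 CPM in KO, 21.1 to 41.4 in WT, 3.73 to 4.86 in Cyto and 27.6 to 36.3 in Nuc libraries. The part of these shifts in the results below was not tested. Libraries of 10 mM glucose were in batch 2 and those of 1 mM glucose in batch 1, so levels were compared only within a medium. The WT library numbered 2 in 1 mM glucose stood apart from the other 15 of its table. The median deviation from the gene mean was 0.75 lower for its long than for its short transcripts (a difference of -0.75 in log2 units), against -0.06 to 0.17 elsewhere in that table. The libraries numbered 4 in 10 mM glucose also had the lowest such difference of their construct, from -0.37 to -0.10.

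In 10 mM glucose most of the 9 genes were higher in all lines with ACLY than in KO cells. Abca1, Nr1h2, Npc1, Npc2 and Pltp rose in WT, Cyto and Nuc cells alike. A gene was called at a limma adjusted p under 0.05 over all genes of the table. In WT cells 6 of the 9 rose and 1 fell, while 20.6% of all genes rose and 20.2% fell (40.8% called). In Cyto cells 6 rose and 1 fell, while 19.6% of all genes rose and 18.9% fell (38.5% called). In Nuc cells 6 rose and 1 fell, while 22.7% of all genes rose and 22.7% fell (45.3% called). The median log2 fold change of the 9 genes was 0.44, 0.60 and 0.56 in WT, Cyto and Nuc cells, while the median of all genes lay within 0.003 of 0 in each comparison. In bulk RNA, fewer cells of a type and less RNA per cell cannot be told apart.

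In 1 mM glucose the 9 genes divided, as did genes over the whole table. Abca1, Npc1 and Nr1h2 again rose in all lines with ACLY, but Npc2, Pltp and Lpcat3 fell in Cyto cells. In WT cells 4 rose and 3 fell, while 29.7% of all genes rose and 28.5% fell (58.2% called). In Cyto cells 5 rose and 3 fell, while 31.7% of all genes rose and 33.0% fell (64.7% called). In Nuc cells 5 rose and 1 fell, while 30.5% of all genes rose and 29.5% fell (60.0% called). The falls in WT and Cyto cells and the number called in Nuc cells are near the shares over all genes, so the division is not particular to these 9. The median log2 fold changes were 0.30, 0.20 and 0.17, beside -0.002, -0.026 and -0.006 over all genes. The Nuc count of 6 called genes dropped to 3 without the KO library numbered 2 or without the Nuc library numbered 1. All of these comparisons share the KO libraries of their medium.

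**Figure D1:**
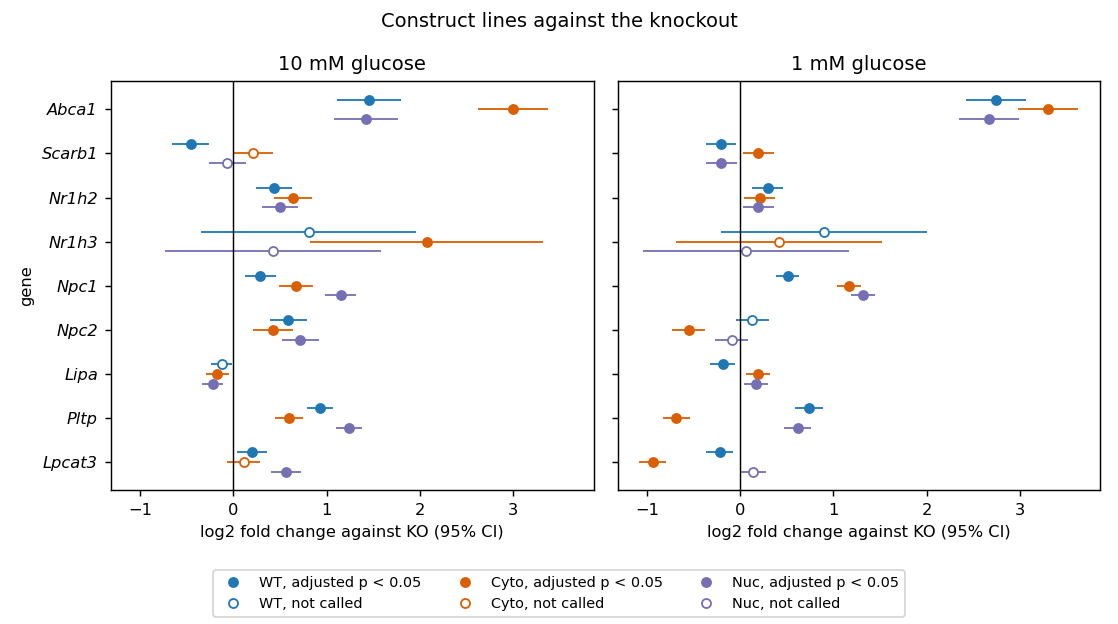
Log2 fold changes of the 9 genes in WT, Cyto and Nuc cells against KO cells in 10 mM (left) and 1 mM glucose (right); bars are 95% confidence intervals from limma and filled points passed the adjusted threshold. Abca1 lies farthest to the right in both media, from 1.42 to 3.00 in 10 mM and from 2.66 to 3.31 in 1 mM glucose. Pltp, Npc2 and Lpcat3 in Cyto cells lie below 0 in 1 mM and above 0 in 10 mM glucose, where the Lpcat3 interval spans 0.

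Abca1 changed most of the 9 genes in every comparison with KO cells. Reference sequence around its start is shown because, of the genes with a RefSeq promoter entry here (7 of the 10, with 8 windows), it alone held a match to the element that LXR and RXR bind together. The motif searched was DR4, AGGTCA repeated in the same direction after a spacer of 4 bases, on both strands of the 250 bases before each start, allowing at most 3 of its 12 fixed letters to differ. Of 32851 windows of this length in the RefSeq table (GRCm38.p6), 18.5% held such a match, so a match of this quality is common. The Abca1 match reads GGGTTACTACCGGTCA on the strand opposite to the gene and lies 67 to 52 bases before the start of the promoter entry. The gene as annotated by RefSeq begins farther upstream than this entry, so the match lies downstream of the first annotated start of the gene. Capitals in the first sequence, which is chr4:53159940-53159969 on the minus strand, mark that match as it appears on the gene's strand. Capitals in the second, chr4:53159989-53160145 on the minus strand, mark the E-box CACGTG, 147 to 142 bases before the start of the entry and upstream of both starts, a motif that 6.02% of all windows held.
Abca1 around the DR4-like match: cagcgttTGACCGGTAGTAACCCcggcgct
Abca1 before the first annotated start: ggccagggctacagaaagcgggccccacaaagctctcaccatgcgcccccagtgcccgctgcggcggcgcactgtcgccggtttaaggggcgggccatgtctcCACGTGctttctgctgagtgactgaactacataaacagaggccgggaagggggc
These letters describe the reference only, and the expression tables hold no measure of binding.

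The Abca1 levels in 10 mM glucose were 5.76, 5.34, 5.30 and 4.93 for KO libraries, 6.90, 6.80, 6.93 and 6.53 for WT, 8.30, 8.48 and 8.23 for Cyto, and 6.79, 6.99, 6.96 and 6.29 for Nuc libraries. KO was lowest and Cyto highest with no overlap, and WT and Nuc lay between them, mixed with each other. Against KO, Abca1 rose 2.74-fold in WT (log2 fold change 1.46 ± 0.16 SE, limma adjusted p = 3.01e-06). It rose 8.01-fold in Cyto (3.00 ± 0.18, limma adjusted p = 2.83e-09) and 2.68-fold in Nuc cells (1.42 ± 0.16, limma adjusted p = 2.63e-06). Abca1 was thus higher in Cyto than in WT cells (1.55 ± 0.18, limma adjusted p = 5.99e-06) and lower in Nuc than in Cyto cells (-1.58 ± 0.18, limma adjusted p = 4.38e-06). Nuc and WT cells differed by -0.03 (95% interval -0.38 to 0.31, limma adjusted p = 0.908). The lowest Abca1 value of each construct came from the library numbered 4. Abca1 has a transcript of 10262 bases, longer than 99.1% of genes measured here. Without those libraries the log2 fold changes of Abca1 against KO were 1.41, 2.92 and 1.45 in WT, Cyto and Nuc cells. After subtracting the length trend of every library these Abca1 values were 1.57, 3.09 and 1.42, with all 3 still called.

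The Abca1 levels in 1 mM glucose were 3.98, 4.06, 3.85 and 3.77 in KO, 6.90, 6.00, 6.89 and 6.88 in WT, 7.07, 7.36, 7.27 and 7.20 in Cyto, and 6.69, 6.55, 6.58 and 6.50 in Nuc libraries. The order of the groups was that of 10 mM glucose, and KO again lay below all others. Abca1 rose 6.72-fold in WT (2.75 ± 0.15, limma adjusted p = 2.89e-10), 9.89-fold in Cyto (3.31 ± 0.15, limma adjusted p = 1.44e-11) and 6.34-fold in Nuc cells (2.66 ± 0.15, limma adjusted p = 2.4e-10). Cyto exceeded WT by 0.56 ± 0.15 (limma adjusted p = 0.00541), and Nuc was lower than Cyto by 0.64 on the log2 scale (-0.64 ± 0.15, limma adjusted p = 0.00279). Nuc and WT differed by -0.08 (95% interval -0.41 to 0.24, limma adjusted p = 0.695). The WT value of 6.00 was that of the library that stood apart. Without it, Abca1 was lower in Nuc than in WT cells (-0.31, limma adjusted p = 0.00317), and also after subtracting the length trend of every library (-0.27, limma adjusted p = 0.00348).

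**Figure D2:**
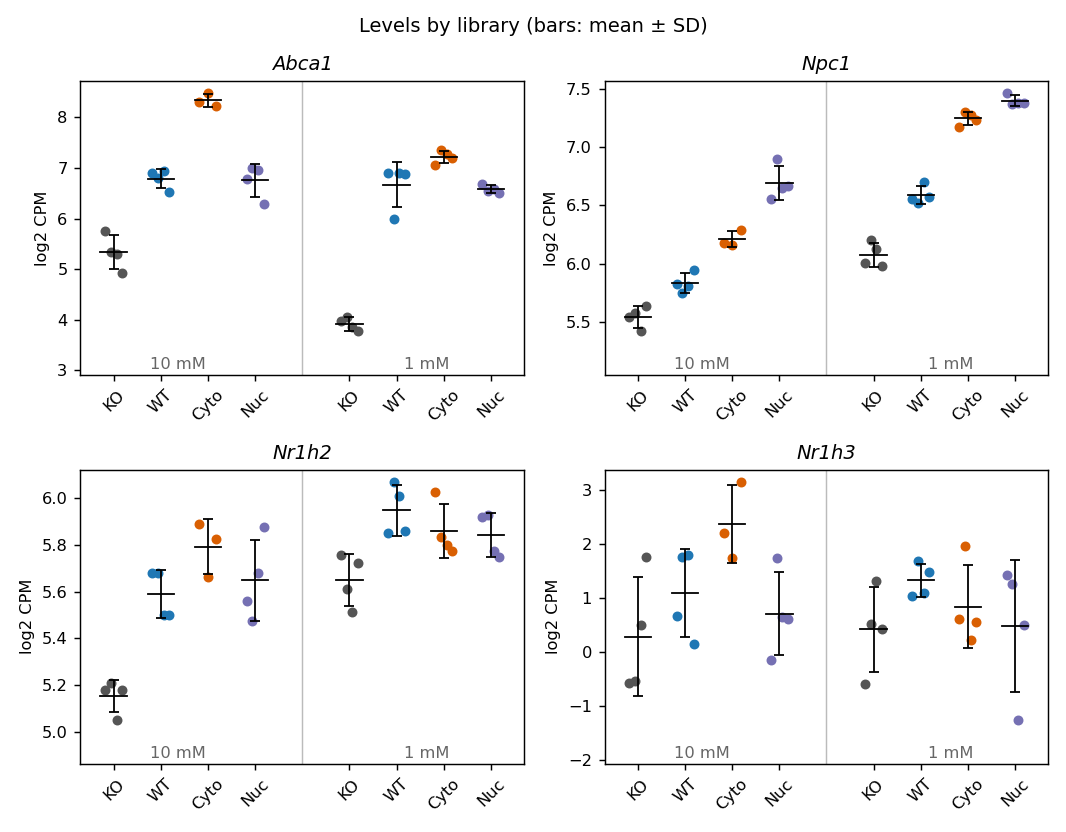
Levels (log2 CPM) of Abca1, Npc1, Nr1h2 and Nr1h3 in each library by construct and medium; points are libraries and bars are means ± SD (n = 4, or 3 for Cyto in 10 mM glucose). Abca1 is lowest in KO and highest in Cyto cells in both media, Npc1 steps up from KO to WT, Cyto and Nuc, and the Nr1h3 groups overlap.

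Of the receptors, Nr1h2 was the one with steady values. Under 10 mM glucose it stood at 5.15 ± 0.07 (SD, n = 4) in KO, 5.59 ± 0.10 in WT, 5.79 ± 0.12 (n = 3) in Cyto and 5.65 ± 0.17 in Nuc cells, and KO did not overlap any other group. It rose by 0.44 ± 0.09 (SE) in WT, 0.64 ± 0.10 in Cyto and 0.50 ± 0.09 in Nuc cells (limma adjusted p = 0.00111, 7.89e-05 and 0.00031). The rises in 1 mM glucose were 0.30, 0.21 and 0.19 (limma adjusted p = 0.00386, 0.0284 and 0.0441). Those in Cyto and Nuc cells were no longer called with equal library medians (limma adjusted p = 0.0537 and 0.0593) or with quantile normalization, where they were 0.11 and 0.12 (limma adjusted p = 0.257 and 0.204). They were also lost in 3 and 6 of 16 fits that left out 1 library. The 3 lines with ACLY did not differ from each other beyond their spread in either medium, with limma adjusted p from 0.132 to 0.897.

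Nr1h3 was close to the low end of the tables, between -1.26 and 3.15 log2 CPM, against a median gene at 4.95 in 10 mM and 5.02 in 1 mM glucose. Its values in 10 mM glucose were -0.57, -0.54, 0.51 and 1.76 in KO and 2.20, 1.73 and 3.15 in Cyto libraries, which overlapped. Nr1h3 was called higher in Cyto than in KO cells (2.07 ± 0.59, limma adjusted p = 0.0104) and lower in Nuc than in Cyto cells (-1.65 ± 0.59, limma adjusted p = 0.0431). The first call was lost without the Cyto library numbered 4 (1.68, limma adjusted p = 0.0633), and the second in 7 of 15 fits that left out 1 library. None of the Nr1h3 comparisons in 1 mM glucose was called, and the interval of Cyto against KO ran from -0.69 to 1.52. WT against KO, at 0.81 in 10 mM and 0.90 in 1 mM glucose, was called without the 10 mM libraries numbered 4 (1.61, limma adjusted p = 0.021) and in 1 mM glucose with quantile normalization (1.41, limma adjusted p = 0.0325).

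Of the lysosomal genes, Npc1 rose stepwise from KO to WT, Cyto and Nuc. Npc1 levels in 10 mM glucose were 5.54, 5.58, 5.42 and 5.64 in KO, 5.83, 5.74, 5.80 and 5.95 in WT, 6.18, 6.16 and 6.29 in Cyto, and 6.55, 6.90, 6.65 and 6.67 in Nuc libraries. No 2 neighbouring groups overlapped. Npc1 rose by 0.29 ± 0.08 in WT, 0.67 ± 0.09 in Cyto and 1.15 ± 0.08 in Nuc cells (limma adjusted p = 0.00861, 1.42e-05 and 8.83e-09). It was higher in Cyto than in WT cells (0.38, limma adjusted p = 0.003) and in Nuc than in Cyto cells (0.48, limma adjusted p = 0.000447). Nuc cells, which had less Abca1 than Cyto cells, thus had more Npc1.

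Npc1 levels in 1 mM glucose were 6.01, 6.20, 6.13 and 5.98 in KO, 6.55, 6.52, 6.70 and 6.57 in WT, 7.17, 7.30, 7.28 and 7.23 in Cyto, and 7.46, 7.37, 7.38 and 7.37 in Nuc libraries. The groups kept the order of 10 mM glucose and did not overlap. The rises were 0.51 ± 0.06, 1.17 ± 0.06 and 1.32 ± 0.06, or 1.42-fold, 2.25-fold and 2.50-fold (limma adjusted p = 1.89e-06, 5.49e-11 and 1.35e-11). Nuc and Cyto cells differed by 0.15 (95% interval 0.02 to 0.28, limma adjusted p = 0.0538), a difference that was called with equal library medians (limma adjusted p = 0.0407) and with quantile normalization (limma adjusted p = 0.0231).

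Npc2, the soluble partner of Npc1, also rose in all lines with ACLY in 10 mM glucose but did not follow Npc1 in 1 mM glucose. Npc2 levels in 10 mM glucose were 7.90, 8.09, 8.21 and 8.35 in KO, 8.72, 8.68, 8.68 and 8.82 in WT, 8.48, 8.56 and 8.63 in Cyto, and 8.74, 8.73, 8.81 and 9.13 in Nuc libraries. KO was lowest, and Npc2 rose by 0.59 ± 0.09 in WT, 0.42 ± 0.10 in Cyto and 0.72 ± 0.09 in Nuc cells (limma adjusted p = 0.000105, 0.00345 and 1.06e-05). Npc2 levels in 1 mM glucose ran from 8.74 to 8.81 in KO, 8.77 to 9.25 in WT, 8.14 to 8.30 in Cyto and 8.61 to 8.75 in Nuc libraries. Npc2 fell by 0.55 on the log2 scale in Cyto cells (-0.55 ± 0.08, limma adjusted p = 2.08e-05), where Npc1 had risen. WT and Nuc cells differed from KO by 0.13 and -0.09 (limma adjusted p = 0.195 and 0.36). The WT value of 9.25 came from the library that stood apart, and without it WT and KO differed by 0.01 (limma adjusted p = 0.781). Without the length trend the WT difference was called (0.28, limma adjusted p = 0.0316), as was the Nuc difference with quantile normalization (-0.19, limma adjusted p = 0.0187).

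Lipa, the lysosomal lipase, moved little. Its levels in 10 mM glucose ran from 7.33 to 7.43 in KO, 7.19 to 7.32 in WT, 7.14 to 7.25 in Cyto and 7.08 to 7.20 in Nuc libraries. It fell in Nuc cells (-0.22 ± 0.05, limma adjusted p = 0.00259) and in Cyto cells (-0.17 ± 0.06, limma adjusted p = 0.0263), and WT differed by -0.13 (limma adjusted p = 0.0713). Lipa in 1 mM glucose fell in WT (-0.19 ± 0.06, limma adjusted p = 0.0151) and rose in Cyto and Nuc cells (0.19 and 0.17, limma adjusted p = 0.0138 and 0.029). With quantile normalization the rises were 0.06 and 0.03 (limma adjusted p = 0.374 and 0.709). Without the length trend the WT fall was -0.06 (limma adjusted p = 0.411), and the Cyto fall in 10 mM glucose was -0.11 (limma adjusted p = 0.128).

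Among the genes of phospholipid handling, Pltp separated Cyto from Nuc cells in both media. Pltp levels in 10 mM glucose were 6.81, 6.92, 7.00 and 7.02 in KO, 7.85, 7.85, 7.84 and 7.93 in WT, 7.61, 7.50 and 7.50 in Cyto, and 8.04, 8.22, 8.13 and 8.32 in Nuc libraries. The 4 groups did not overlap. Pltp rose 1.91-fold in WT (0.93 ± 0.07), 1.51-fold in Cyto (0.60 ± 0.07) and 2.36-fold in Nuc cells (1.24 ± 0.07), with limma adjusted p = 1.46e-08, 5.38e-06 and 3.38e-10. Nuc exceeded Cyto by 0.64 ± 0.07 (limma adjusted p = 3.33e-06).

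Pltp levels in 1 mM glucose were 7.90, 7.86, 7.82 and 7.94 in KO, 8.57, 8.81, 8.56 and 8.54 in WT, 7.37, 7.12, 7.21 and 7.08 in Cyto, and 8.44, 8.54, 8.51 and 8.52 in Nuc libraries. Cyto was now the lowest group, below KO, and WT the highest. Pltp fell in Cyto cells (-0.69 ± 0.07, limma adjusted p = 1.78e-07), while it rose in WT (0.74 ± 0.07, limma adjusted p = 1.41e-07) and in Nuc cells (0.62 ± 0.07, limma adjusted p = 8.47e-07). Nuc exceeded Cyto 2.47-fold (1.30 ± 0.07, limma adjusted p = 2.99e-10).

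Lpcat3 resembled Pltp in its Cyto values in 1 mM glucose. Its levels there were 6.11, 6.07, 6.30 and 6.20 in KO, 5.94, 5.92, 5.91 and 6.04 in WT, 5.41, 5.14, 5.22 and 5.18 in Cyto, and 6.30, 6.34, 6.33 and 6.26 in Nuc libraries. Cyto lay well below the other groups. Lpcat3 fell 1.92-fold in Cyto (-0.94 ± 0.07, limma adjusted p = 3.24e-09) and 1.16-fold in WT cells (-0.22 ± 0.07, limma adjusted p = 0.0109), and Nuc differed from KO by 0.14 (limma adjusted p = 0.0918). Without the length trend the WT fall was no longer called (-0.13, limma adjusted p = 0.0854), while the Nuc difference was called (0.19, limma adjusted p = 0.0175). The Nuc difference was also called without the KO library numbered 3 (0.18, limma adjusted p = 0.0416).

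Lpcat3 levels in 10 mM glucose were 5.80, 6.06, 6.02 and 6.05 in KO, 6.31, 6.17, 6.19 and 6.06 in WT, 6.15, 6.07 and 6.06 in Cyto, and 6.51, 6.70, 6.48 and 6.48 in Nuc libraries. The Nuc libraries were the highest 4. Lpcat3 rose in Nuc cells (0.56 ± 0.08, limma adjusted p = 1.7e-05), and Cyto differed from KO by 0.11 (95% interval -0.06 to 0.29, limma adjusted p = 0.317). The rise in WT cells (0.20 ± 0.08, limma adjusted p = 0.0446) was lost in 10 of 15 fits that left out 1 library, with 0.14 (limma adjusted p = 0.14) without the KO library numbered 1.

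**Figure D3:**
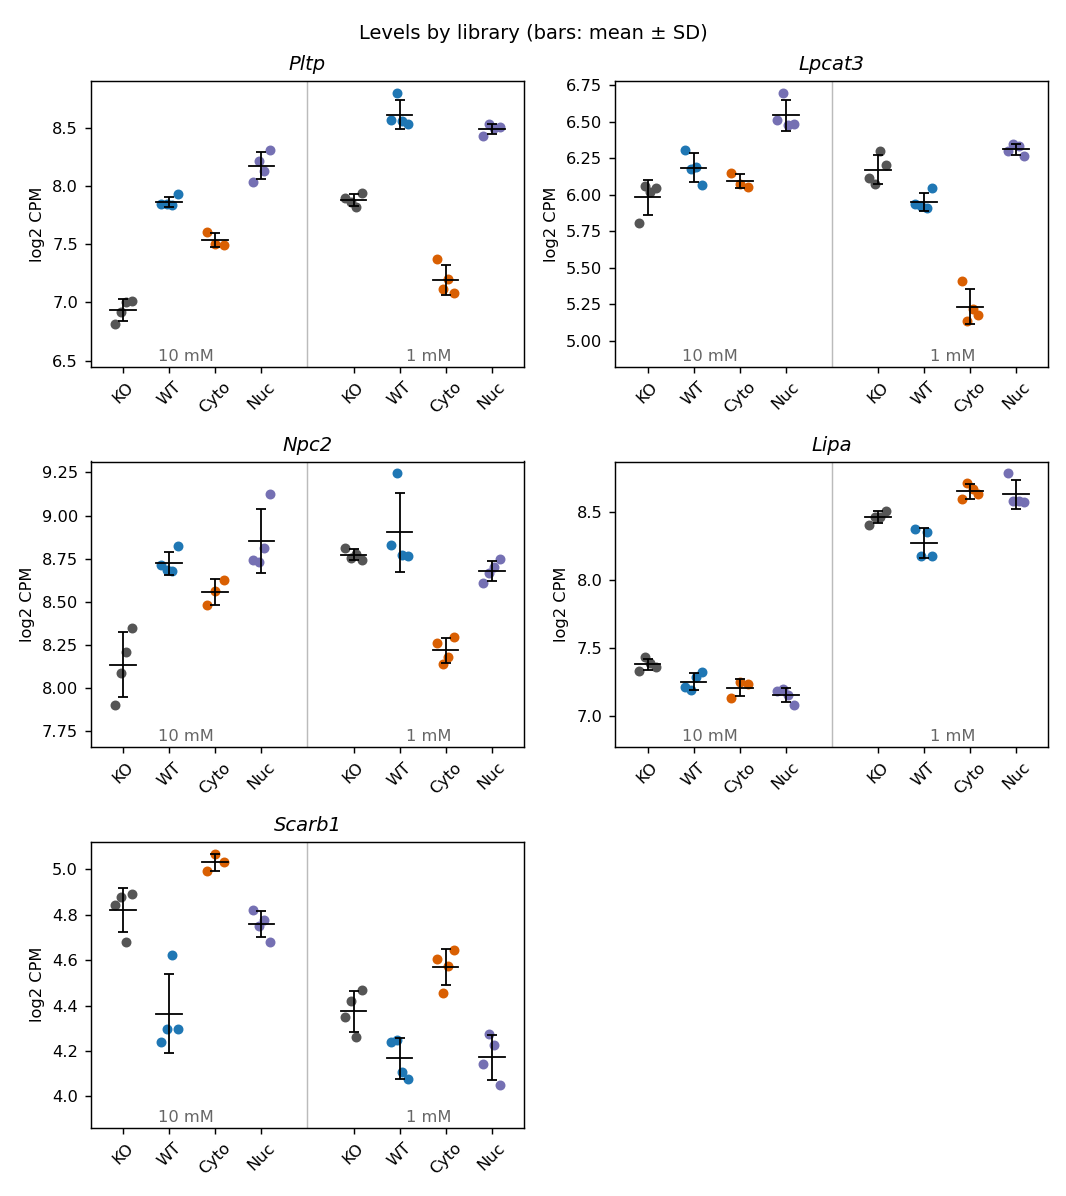
Levels (log2 CPM) of Pltp, Lpcat3, Npc2, Lipa and Scarb1 in each library by construct and medium; points are libraries and bars are means ± SD (n = 4, or 3 for Cyto in 10 mM glucose). In 1 mM glucose the Cyto libraries are the lowest for Pltp, Lpcat3 and Npc2 and the highest group mean for Scarb1 and Lipa.

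Scarb1, the lipoprotein receptor, had its lowest mean in WT and its highest in Cyto cells in both media. Scarb1 levels in 10 mM glucose were 4.84, 4.88, 4.68 and 4.89 in KO, 4.24, 4.30, 4.62 and 4.30 in WT, 5.00, 5.07 and 5.03 in Cyto, and 4.82, 4.75, 4.78 and 4.68 in Nuc libraries. Scarb1 fell in WT cells (-0.46 ± 0.09, limma adjusted p = 0.000859), while Cyto and Nuc differed from KO by 0.21 and -0.07 (limma adjusted p = 0.114 and 0.602). Cyto exceeded WT by 0.67 ± 0.10 (limma adjusted p = 9.51e-05). Scarb1 in 1 mM glucose fell in WT and Nuc cells (-0.21 and -0.20, limma adjusted p = 0.0303 and 0.033) and rose in Cyto cells (0.20, limma adjusted p = 0.0367). Each of these 3 calls was lost in 4 or 5 of 16 fits that left out 1 library, and Cyto again exceeded WT (0.40 ± 0.08, limma adjusted p = 0.000343).

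The lines that carry ACLY were also compared with each other. They differ in the amount of Acly RNA as well as in the sequences added to the protein, and these cannot be told apart. Acly was lower in Nuc than in Cyto cells by 0.62 in 10 mM (-0.62 ± 0.10) and 1.53 in 1 mM glucose (-1.53 ± 0.07), and lower than in WT cells by 1.09 and 1.60 (-1.09 ± 0.09 and -1.60 ± 0.07). In 10 mM glucose 4 of the 9 genes were higher in Nuc than in Cyto cells (Npc1, Npc2, Pltp and Lpcat3) and 3 were lower (Abca1, Nr1h3 and Scarb1), while 15.3% of all genes were higher and 15.7% lower (31.0% called). This count of 7 went down to 4 when either of the Cyto libraries numbered 1 and 4 or of the Nuc libraries numbered 3 and 4 was left out. The Scarb1 call (-0.27, limma adjusted p = 0.048) was lost in 12 of 15 fits that left out 1 library. The Nr1h3 and Npc2 calls were lost in 7 and 5 of these fits. Nuc cells in 1 mM glucose had 3 genes higher than Cyto cells (Npc2, Pltp and Lpcat3) and 2 lower (Abca1 and Scarb1), while 20.4% of all genes were higher and 20.5% lower (41.0% called). Lpcat3 was 2.11-fold higher in Nuc cells there (1.07 ± 0.07, limma adjusted p = 2.6e-09). Against WT cells in 10 mM glucose, 3 genes were higher and 1 lower in Cyto, where 15.9% of all genes were higher and 15.6% lower (31.5% called). Nuc exceeded WT for 4 genes and was below it for none of the 9, where 15.0% of all genes were higher and 13.8% lower (28.8% called). Against WT cells in 1 mM glucose, 4 were higher and 3 lower in Cyto, where 25.7% of all genes were higher and 27.5% lower (53.2% called), and 3 were higher and 1 lower in Nuc cells, where 19.7% of all genes were higher and 19.4% lower (39.1% called). The 1 lower gene was Npc2 (-0.22, limma adjusted p = 0.0453), a call lost in 13 of 16 fits that left out 1 library, with -0.11 (limma adjusted p = 0.0611) without the WT library numbered 2. The largest of these differences from WT cells, apart from that of Abca1 in 10 mM glucose, was that of Pltp between Cyto and WT cells in 1 mM glucose (-1.42 ± 0.07, limma adjusted p = 6.16e-11).

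Whether the fold changes differed between the media was tested over the 11931 genes in both tables, by subtracting the log2 fold change of 10 mM from that of 1 mM glucose. Such a difference still mixes medium with batch, which cannot be told apart where a batch acts unequally on the constructs. For WT against KO, 1 gene of the 9 had a higher and 2 a lower fold change in 1 mM glucose, while 13.5% of all genes had a higher and 12.7% a lower one (26.2% called). For Cyto against KO the counts were 2 and 4, with 21.5% and 23.2% of all genes (44.7% called). For Nuc against KO they were 2 and 4, with 17.8% and 18.7% (36.5% called). For Nuc against Cyto they were 3 and 1, with 9.47% and 9.48% (19.0% called).

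The rise of Abca1 over KO was larger in 1 mM glucose in WT cells (by 1.29 ± 0.24, limma adjusted p = 0.000151) and in Nuc cells (by 1.24 ± 0.24, limma adjusted p = 0.000136). In Cyto cells the difference was 0.30 (95% interval -0.20 to 0.81, limma adjusted p = 0.334), and 0.38 (limma adjusted p = 0.00807) without the length trend. The gap of Nuc below Cyto was smaller in 1 mM glucose (difference 0.94 ± 0.25, limma adjusted p = 0.00718). Npc1 rose more in Cyto cells (0.50 ± 0.10, limma adjusted p = 0.000151).

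Pltp, Lpcat3, Npc2 and Nr1h2 went the other way. Their fold changes in Cyto were lower in 1 mM glucose by 1.29 (-1.29 ± 0.10), 1.05 (-1.05 ± 0.10), 0.97 (-0.97 ± 0.14) and 0.43 (-0.43 ± 0.12), with limma adjusted p = 1.87e-11, 2.75e-09, 1.07e-06 and 0.00518. In Nuc cells the differences were -0.62, -0.42, -0.81 and -0.30, the last with limma adjusted p = 0.0448 and lost in 11 of 31 fits that left out 1 library. The shift was larger in Cyto than in Nuc cells for Pltp (0.66 ± 0.10, limma adjusted p = 9.64e-06) and Lpcat3 (0.63 ± 0.10, limma adjusted p = 5.1e-05). For Npc2 and Nr1h2 that difference was 0.17 (95% interval -0.11 to 0.44) and 0.13 (95% interval -0.12 to 0.38), with limma adjusted p = 0.449 and 0.528. In WT cells Npc2 shifted by -0.46 (limma adjusted p = 0.00953), or -0.39 (limma adjusted p = 0.0716) without the length trend. For Lipa the fold change was higher in 1 mM glucose in Cyto (0.36 ± 0.08, limma adjusted p = 0.000588) and in Nuc cells (0.39 ± 0.08, limma adjusted p = 0.000211). Scarb1 and Nr1h3 had no called difference between media in the main fit, with limma adjusted p from 0.104 to 0.944. Scarb1 in WT cells (0.252) was called with quantile normalization (0.315, limma adjusted p = 0.041). It was also called without the 10 mM WT library numbered 3 (0.338, limma adjusted p = 0.0193). Nr1h3 in Cyto cells (-1.657) was called without the 10 mM KO library numbered 4 (-2.146, limma adjusted p = 0.0313).

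**Figure D4:**
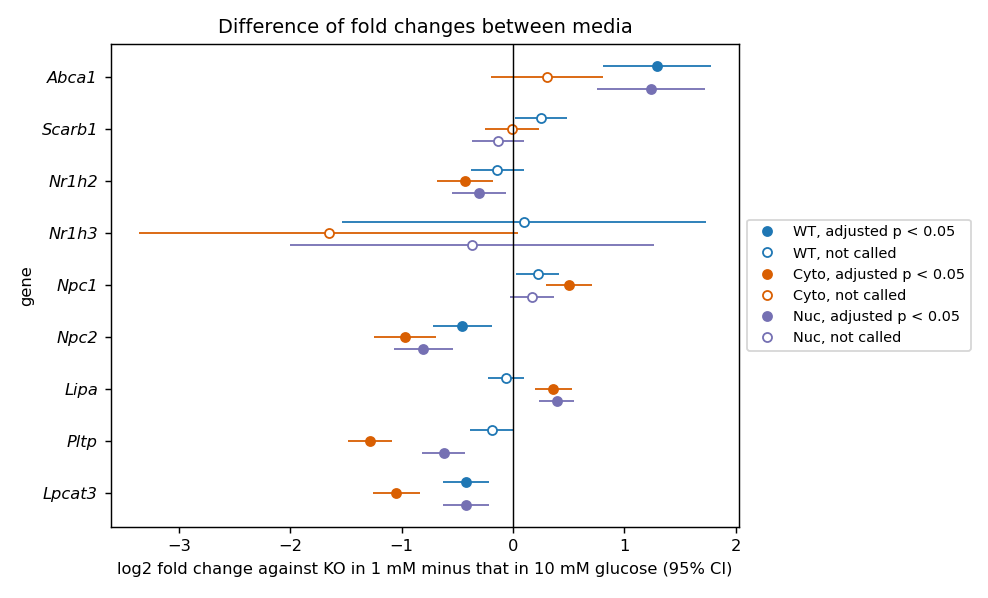
Difference of the log2 fold change against KO between 1 mM and 10 mM glucose for the 9 genes in WT, Cyto and Nuc cells; bars are 95% confidence intervals from limma and filled points passed the adjusted threshold. Abca1 lies above 0 in WT and Nuc cells (1.29 and 1.24), while Pltp, Lpcat3 and Npc2 in Cyto cells lie between -1.29 and -0.97.

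Other genes of the pathway were examined as lists of named genes. Their counts against KO stand beside shares over all genes of 18.9% to 22.7% in each direction in 10 mM and 28.5% to 33.0% in 1 mM glucose, with the median over all genes between -0.026 and -0.000. Of 20 further genes known as LXR targets, 14 had values in 10 mM and 13 in 1 mM glucose. With 10 mM glucose 3 rose and 8 fell in WT, 6 rose and 3 fell in Cyto, and 4 rose and 5 fell in Nuc cells, with medians of -0.40, 0.05 and -0.09. The counts in 1 mM glucose were 2 and 6, 2 and 9, and 4 and 7, with medians of -0.08, -0.49 and -0.36. Mylip, which encodes the ligase that marks the LDL receptor for degradation, rose in all lines with ACLY, by 0.27, 0.80 and 0.39 in 10 mM and 0.65, 0.86 and 0.34 in 1 mM glucose (WT, Cyto, Nuc). Lpl, the lipoprotein lipase, rose by 0.77 ± 0.06 and 1.13 ± 0.06 in Nuc cells (10 mM and 1 mM glucose). Scd1, a fatty acid desaturase, fell by 1.90, 1.57 and 1.47 in WT, Cyto and Nuc cells in 1 mM glucose, and Acsl3, an acyl-CoA synthetase, fell by 1.62, 1.06 and 1.51. Srebf1, chosen after its values were seen because it is a classical LXR target, differed from KO by -0.26 to -0.15 in 10 mM glucose with no call, and fell in 1 mM glucose in Cyto cells (-0.41 ± 0.09, limma adjusted p = 0.000546).

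Of the 9 measured RXR partners and coregulators, 2 rose and 1 fell in WT, 1 rose in Cyto, and 2 rose and 2 fell in Nuc cells in 10 mM glucose, with medians of -0.07, 0.14 and -0.07. The counts in 1 mM glucose were 1 and 2, 4 and 2, and 3 and 1, with medians of -0.15, -0.13 and -0.11. Of these 9 genes, 1 was called in Cyto cells in 10 mM glucose, against 38.5% of all genes. In 1 mM glucose 1 rose in WT cells, against 29.7% of all genes, and 4 rose in Cyto cells, against 31.7%. Differences from these shares were not tested on so few genes. Rxrb, an RXR, rose in WT cells by 0.52 ± 0.09 in 10 mM and in all lines in 1 mM glucose (0.68, 0.52 and 0.38 in WT, Cyto and Nuc). Among 9 measured transporters of sterols and phospholipids, Abca7, a relative of Abca1, rose in 10 mM glucose by 0.83, 1.14 and 0.91. In 1 mM glucose it rose in WT and Nuc cells (0.91 and 0.74) and differed by -0.22 in Cyto cells (limma adjusted p = 0.0554). This list had 4 up and 2 down in WT, 2 and 2 in Cyto and 4 and 1 in Nuc cells in 10 mM glucose, and 2 and 3, 2 and 4, and 4 and 2 in 1 mM glucose. Its medians were 0.25, -0.10 and 0.12 in 10 mM and -0.04, -0.22 and 0.08 in 1 mM glucose.

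The 19 genes of intracellular cholesterol transport had 5 up and 4 down in WT, 9 and 4 in Cyto and 8 and 3 in Nuc cells in 10 mM glucose. The counts in 1 mM glucose were 7 and 7, 5 and 8, and 6 and 8. The medians were 0.01, 0.19 and 0.18 in 10 mM and -0.06, 0.06 and 0.07 in 1 mM glucose, and the WT counts in 10 mM glucose are near the shares over all genes. Scarb2, a lysosomal membrane protein that binds cholesterol, rose in Nuc cells by 0.80 ± 0.06 in 10 mM and 0.80 ± 0.05 in 1 mM glucose. Stard4, a soluble sterol carrier, fell by 1.20, 0.86 and 1.02 in WT, Cyto and Nuc cells in 10 mM glucose (log2 fold changes -1.20, -0.86 and -1.02), and by 2.43, 1.89 and 1.77 in 1 mM glucose. Of the 15 measured genes driven by SREBP2, the factor that raises sterol synthesis when sterols are scarce, 1 rose and 12 fell in WT, 2 rose and 6 fell in Cyto, and 2 rose and 12 fell in Nuc cells in 10 mM glucose, with medians of -0.73, -0.04 and -0.70. All 15 fell in WT and in Nuc cells in 1 mM glucose, and 11 fell and 1 rose in Cyto cells, with medians of -1.83 in WT, -0.93 in Cyto and -1.37 in Nuc cells.

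Among enzymes that esterify sterols or make oxysterols, the LXR ligands, 11 had values in 10 mM and 10 in 1 mM glucose. Soat2, which esterifies cholesterol, rose by 0.99, 1.96 and 1.29 in WT, Cyto and Nuc cells in 10 mM glucose and by 1.36, 2.39 and 1.72 in 1 mM glucose. Ch25h, which makes 25-hydroxycholesterol, fell by 2.30, 2.45 and 2.57 in 10 mM glucose. Ch25h in 1 mM glucose fell by 0.94 and 0.42 in WT and Cyto cells, and Nuc differed from KO by 0.23 (limma adjusted p = 0.242). The list as a whole had 3 up and 3 down in WT, 3 and 2 in Cyto and 2 and 5 in Nuc cells in 10 mM glucose, and 3 and 4, 4 and 5, and 3 and 4 in 1 mM glucose. Its medians were -0.09, -0.10 and -0.25 in 10 mM and 0.10, -0.43 and -0.13 in 1 mM glucose. Of 7 measured acyltransferase and lipid transfer relatives of Lpcat3 and Pltp, 2 rose and 2 fell in WT, 2 rose in Cyto, and 3 rose and 3 fell in Nuc cells in 10 mM glucose, with medians of -0.22, 0.40 and 0.19. The counts in 1 mM glucose were 1 and 3, 2 and 2, and 1 and 3, with medians of -0.09, 0.20 and -0.11, and Lpcat1 fell in all lines in 1 mM glucose (-0.83, -0.41 and -0.68).

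The genes whose group means ran most like those of Abca1 were found by centring each gene's 4 group means in each table and taking the largest gap to Abca1 over the 8 values. Of the 11931 genes, those bearing only a provisional symbol or a database number were skipped, and some of them may lie closer. Among the genes kept, the closest were Pcdhgb7 (largest gap 0.74 log2 units), Gpr176 (0.76), Ms4a4d (0.78), Soat2 (0.81) and Rorb (0.84). Each had its lowest group mean in KO cells in both media, a trait that the choice by likeness to Abca1 favours and not a separate result. Ms4a4d, of a family of membrane proteins, stood 2.97 and 3.02 higher in Cyto than in KO cells on the log2 scale in 10 mM and 1 mM glucose, against 3.00 and 3.31 for Abca1. Soat2 was the only gene of the lists above among these 5.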

How the data were processed

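RNA-seq values of 31 libraries were used, 15 in 10 mM and 16 in 1 mM glucose. The authors deposited 1 gene table per medium with values in log2 CPM. Per the submitters' processing notes, kallisto, edgeR and limma were used with GRCm39; versions, settings and the filter on low values are not given in the sources used here. Whole reads could not be recovered, so depth is unknown. The lowest value is -3.293 in 10 mM and -3.592 in 1 mM glucose. The row without a gene symbol (1 per table) was left out.

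Group means of the 4 constructs were fitted per table with limma 3.58.1 in R 4.3.3, its prior variance following mean intensity, and p-values were adjusted by Benjamini-Hochberg over all genes of the table. Differences between media came from 1 fit of both tables over their shared genes. The code was tested on simulated data. Transcript lengths came from GENCODE M21 and promoter windows from RefSeq, both on GRCm38, so no coordinates of the tables' build are given.

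The genes, lists and tests were chosen with earlier results of these data known. The 5 genes most like Abca1 were named, among those not skipped for a provisional symbol or database number. Beside these, the 10 genes and Acly, up to 3 genes per list with the smallest adjusted p in a comparison were named. Their values in other comparisons were given too. A gene that this rule would name is not reported here. Alternatives were quantile normalization, equal library medians, a constant prior variance, adding 1 before taking logs, dropping genes with a mean log2 level under 0, a replicate block and leaving out each library. After seeing the data, 2 more were added: fits without the libraries numbered 4 in 10 mM glucose, and fits after subtracting a length trend from every library (spline, 5 degrees of freedom).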

Additional observations from a re-analysis of the deposited data

Results flagged for a closer look

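Of 63 groups of 4 libraries checked, 8 had 1 library far from the other 3 by Dixon's ratio of gap to range; chance marks about 1 in 20 groups. In 10 mM glucose these were Pltp in WT library 4 (7.93), Lpcat3 in KO library 1 (5.80) and Scarb1 in WT library 3 (4.62). In 1 mM glucose, WT library 2 was far from the rest for Abca1 (6.00), Npc2 (9.25) and Pltp (8.81), and Nuc library 1 for Npc1 (7.46) and Lipa (8.79).

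Fold changes that differed between media by limma's test of the difference (1 mM minus 10 mM glucose) were, for WT against KO, 1.29 for Abca1, -0.42 for Lpcat3 and -0.46 for Npc2, the last lost (-0.39, limma adjusted p = 0.0716) without the length trend. For Cyto against KO they were 0.36 for Lipa, 0.50 for Npc1, -1.05 for Lpcat3, -0.97 for Npc2, -0.43 for Nr1h2 and -1.29 for Pltp. For Nuc against KO they were 1.24 for Abca1, 0.39 for Lipa, -0.42 for Lpcat3, -0.81 for Npc2, -0.30 for Nr1h2 and -0.62 for Pltp. For Nuc against Cyto they were 0.94 for Abca1, 0.63 for Lpcat3, 0.66 for Pltp and -0.33 for Npc1, which was also lost (-0.30, limma adjusted p = 0.0906) without the length trend.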

How the results depend on the processing

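No called value of the 9 genes changed direction under any setting run, and among the 3888 values over all settings, called or not, 40 that were not called changed sign. Of 144 gene comparisons, quantile normalization lost 9 calls and gained 7, removing length trends lost 6 and gained 6, equal medians lost 4 and gained 1, and dropping the trend in the prior variance lost 5. Neither adding 1 before taking logs nor a minimum mean of 0 changed a call among the 144. Leaving out 1 library lost 91 and gained 10 of 2790. With quantile normalization 6 of the 9 genes, not 3, were called for the difference between media of WT against KO. Over the fits that left out 1 library, called genes ranged from 4 to 7 for Nuc against Cyto in 10 mM and from 3 to 6 for Nuc against KO in 1 mM glucose. The cause was not tested. Library numbers were not taken to pair the samples. Correlations of same-numbered deviations ran from -0.03 to 0.36 in 10 mM and from -0.18 to 0.14 in 1 mM glucose. For no library number did all pairs reach the bar of 0.1, although some pairs passed it in both media. In 10 mM glucose 10 of 15 libraries correlated best with their own number, a hint from the data and not the design, against 3 of 16 in 1 mM glucose. The replicate block lost 4 calls, all near the threshold: Npc2 in Nuc against WT in 1 mM (limma adjusted p = 0.0659) and Scarb1 in Cyto against KO in 1 mM (0.0568), Nuc against KO in 1 mM (0.0521) and Nuc against Cyto in 10 mM glucose (0.0535). Unknown depth limits what can be said of genes near the lowest value, such as Nr1h3.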
